A study of Mus musculus with 12 samples.

Results

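The machinery that copies DNA in S phase was examined in regulatory T cells, a CD4 lineage that keeps immune responses in check, of NOD mice and of mice labelled NOD.Drak2-/-. The genes are 40 symbols chosen by name for their roles in DNA replication and S phase, and 39 of them had a row among the 19505 named genes of the array. Mcm7 was not analysed here. Where a gene had several rows the brightest was to be used, and each of the 39 had 1 row.

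NOD is an inbred strain that develops autoimmune diabetes spontaneously, and NOD.Drak2-/- is that strain labelled as lacking Drak2, the kinase encoded by Stk17b. Both groups were female, 4 to 8 weeks old and untreated as far as the labels say, and in both the cells were sorted from lymph nodes as CD4+, CD8- and CD45RBlo, with CD25+ also given in the sample labels. Each of the 12 arrays, 6 per genotype, held RNA from 1 mouse. The labels name the Drak2 allele and do not describe it. All values below are log2 expression levels from the authors' deposited table unless a difference is named, and each difference is NOD.Drak2-/- minus NOD on the log2 scale.

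As background, a cell licenses its replication origins in G1 by loading the ring-shaped helicase made of the Mcm2 to Mcm7 proteins, and fires them in S phase, when Cdc45 and the GINS complex join the ring and the polymerases, the sliding clamp and the ligase follow. Most of these genes are controlled by E2F transcription factors, which the retinoblastoma proteins keep silent in resting cells. Most regulatory T cells in a lymph node are resting and a minority cycles, so in sorted cells the level of an S phase gene reflects both the share of cycling cells and the RNA per cycling cell, which bulk arrays cannot tell apart.

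The promoters of the genes are shown first because E2F control is what many of them are known to share. How far that knowledge entered the choice by name is not known, so the shares below describe the list. RefSeq promoter windows of GRCm38.p6, each 300 bases long and running from 250 bases before to 50 after a start site, were matched by symbol to 33 of the 40 genes, in 38 windows. The letters searched on both strands were the 4 forms TTTCCCGC, TTTCGCGC, TTTGCCGC and TTTGGCGC of the E2F consensus, and a pair of forms can overlap head to head and share bases. At least 1 form stood in 34.2% of the 38 windows, in 2.94% of the windows of genes tested on the array and in 2.27% of all 32851 windows of that length. The share was 22.5% for a list of further replication genes and 36.4% for a list of E2F and G1 regulators. These letters contain CG, and the median window of the replication genes held 21.5 CG steps against 14 over the windows of genes tested and 7 over all windows. For comparison, the letters TTTGAA of the CHR element, known from promoters of mitotic genes, stood in 7.89% of the replication windows, in 68.4% of the 19 windows of a mitosis list and in 17.9% of all windows. A match is a description of the letters and not evidence of a bound site.

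The 200 bases before the start site are printed below, 5′ to 3′ along the gene's strand, for the 7 measured genes with an E2F form wholly upstream of the start. Capitals mark the E2F letters on either strand, and the genes run from the origin recognition subunit and the licensing factor through the helicase and the polymerase to the clamp loader and the methylation-maintenance factor.
Orc1, chr4:108579254-108579453, plus strand: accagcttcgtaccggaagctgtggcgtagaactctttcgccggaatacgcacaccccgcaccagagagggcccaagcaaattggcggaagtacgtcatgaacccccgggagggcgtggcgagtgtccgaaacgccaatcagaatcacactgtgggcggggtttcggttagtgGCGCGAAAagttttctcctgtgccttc
Cdc6, chr11:98907951-98908150, plus strand: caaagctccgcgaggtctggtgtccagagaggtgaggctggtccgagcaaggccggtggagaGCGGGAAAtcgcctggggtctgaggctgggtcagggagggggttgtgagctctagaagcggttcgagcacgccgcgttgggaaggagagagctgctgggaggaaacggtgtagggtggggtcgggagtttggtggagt
Mcm5, chr8:75109309-75109508, plus strand: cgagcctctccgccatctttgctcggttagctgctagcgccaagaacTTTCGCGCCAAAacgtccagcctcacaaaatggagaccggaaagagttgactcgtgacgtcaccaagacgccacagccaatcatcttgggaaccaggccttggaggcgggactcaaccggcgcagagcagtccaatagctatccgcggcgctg
Mcm6, chr1:128359706-128359905, minus strand: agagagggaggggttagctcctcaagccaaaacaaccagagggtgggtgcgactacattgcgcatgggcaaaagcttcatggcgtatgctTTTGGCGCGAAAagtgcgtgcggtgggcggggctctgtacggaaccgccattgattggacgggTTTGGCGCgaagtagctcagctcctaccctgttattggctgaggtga
Pola1, chrX:93632156-93632355, minus strand: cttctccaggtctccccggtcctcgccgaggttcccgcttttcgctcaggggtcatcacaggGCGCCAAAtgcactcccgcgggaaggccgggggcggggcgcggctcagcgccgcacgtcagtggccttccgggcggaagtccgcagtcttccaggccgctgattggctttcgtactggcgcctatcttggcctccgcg
Rfc3, chr5:151651209-151651408, minus strand: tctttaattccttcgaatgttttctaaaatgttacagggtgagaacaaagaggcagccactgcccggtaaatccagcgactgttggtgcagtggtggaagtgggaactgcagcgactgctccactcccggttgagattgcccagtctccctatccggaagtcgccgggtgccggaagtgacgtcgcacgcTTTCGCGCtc
Uhrf1, chr17:56304113-56304312, plus strand: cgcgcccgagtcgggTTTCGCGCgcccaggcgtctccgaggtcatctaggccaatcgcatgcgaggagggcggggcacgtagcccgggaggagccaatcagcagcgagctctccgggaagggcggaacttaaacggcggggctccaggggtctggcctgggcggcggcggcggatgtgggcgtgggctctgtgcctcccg
In the Mcm5 stretch and in the left-hand match of the Mcm6 stretch, 2 forms on opposite strands overlap, and Mcm6 holds a further form nearer the start.

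Before the results, 3 arrays need naming. Over all genes the first principal component held 23.2% of the variance, and NOD.Drak2-/- replicates 2 and 1 had its highest scores. NOD replicate 2 had the highest score on the second component, which held 15.4%. In limma's array weights NOD.Drak2-/- replicate 2 (0.51) and NOD replicate 2 (0.62) were lowest, with NOD.Drak2-/- replicate 1 (0.75) next. The area under the curve of the array's positive against its negative control rows was 0.924 in NOD replicate 2 and 0.932 and 0.907 in NOD.Drak2-/- replicates 1 and 2, and over all 12 arrays it ran from 0.894 to 0.934. The bacterial hybridization control rows had means of 8.64 to 9.34 on NOD arrays and of 8.45 to 10.39 on NOD.Drak2-/- arrays, the highest being replicates 1, 2 and 5 (9.83, 10.39 and 10.04). The brightest background row of an array lay at 6.52 and 6.77 in NOD.Drak2-/- replicates 1 and 2. On the other arrays it lay between 5.51 and 6.07. The part of this background in the differences below was not tested. Array medians over all genes lay between 5.18 and 5.34. Stk17b averaged 10.52 in NOD and 10.25 in NOD.Drak2-/- with overlapping groups. Both means lie far above the background rows, and the labels do not say where the row's probes lie relative to the deleted part, so this value checks neither the genotype label nor single arrays.

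The cells carried the T cell markers that were measured and most of the regulatory T cell markers. All 7 T cell markers lay above 5.87, the level of the brightest of the 23 background rows, and so did 7 of 8 regulatory T cell markers, with Tnfrsf4, a costimulatory receptor, at 11.59 and Ctla4 at 9.70. Il2ra, which encodes CD25, lay in the background range at 4.91, and Foxp3 was not analysed here. Markers of other cell types that could bring S phase transcripts were mostly in the background range. All 9 myeloid and dendritic markers lay there, with per-array list means of 4.01 to 4.38 in NOD and 4.01 to 4.53 in NOD.Drak2-/-. So did 5 of 6 B cell markers (list means 4.95 to 5.20 and 4.71 to 5.46), 4 of 6 plasma cell markers (4.70 to 5.10 and 4.70 to 5.04), 4 of 5 NK cell markers (3.40 to 3.76 and 3.47 to 4.27) and 4 of 6 stromal markers (5.25 to 5.49 and 5.14 to 5.49). Cd8a was in that range (5.04) and Cd8b1 above it (7.36). None of these markers passed between the genotypes over all genes in limma. At an unadjusted limma p under 0.05 there were 3 of 6 B cell and 2 of 5 NK cell markers. There were also 1 of 6 plasma cell and 1 of 9 myeloid and dendritic markers, where 9.43% of all genes met that p. Of the B cell markers, Cd79b was at 5.89 in NOD and 6.37 in NOD.Drak2-/-, while Blk (-0.30) and Pax5 (-0.54) had negative differences. The NK cell markers were Eomes, at 5.84 and 6.26, and Gzma, with a difference of 0.60 in the background range. The plasma cell marker was Sdc1 (-0.37) and the myeloid marker Csf1r (0.55), both also in that range. The mean difference of the NK cell list was 0.21 and that of the B cell list -0.06, and the part of these markers in the replication values was not tested.

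No replication gene passed the test between the genotypes, although most had a negative difference. In limma, 0 of the 39 genes had an adjusted p under 0.05 over all genes, where 0.0205% of all genes did. The difference was negative for 33 of the 39 and positive for 6, against 54.1% negative over all genes tested, and the median difference was -0.20 against -0.02. Among genes with a mean above the brightest background row, 28 of 32 replication genes were negative, against 44.6% of all such genes. The medians there were -0.23 and 0.03. At an unadjusted limma p under 0.05 there were 5 genes, all lower in NOD.Drak2-/-: Prim2, Chaf1b, Rrm1, Pcna and Pole2. That is 12.8% of the 39, where 5.69% of all genes met that p on the lower side, 3.74% on the higher side and 9.43% on either side. None of the 39 had groups that did not overlap, where 0.333% of all genes did so on the lower side. The genes were proposed with earlier results of these arrays known, so these counts describe the list and do not test it.

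The count of negative signs moved with a few arrays. Without the pair of arrays highest on the first component, NOD.Drak2-/- replicates 1 and 2, the difference was negative for 24 of 39 genes, the median was -0.09 and 0 genes had an unadjusted p under 0.05, where 8.12% of all genes did. Without NOD replicate 2 all 39 differences were negative, the median was -0.27 and 12 genes had an unadjusted p under 0.05, where 6.91% of all genes did. That array is the lowest NOD array for these genes, so leaving it out favours a negative sign. In the same way, NOD.Drak2-/- replicates 1 and 2 have the lowest list means of their genotype. Leaving them out, here and for the roles and single genes below, favours a less negative difference. The count at that p was 2 without NOD replicate 1, where 7.38% of all genes met it. It was 3 when the array left out was number 4 or 6 of NOD (9.08% and 10.2% of all genes), or number 1 or 5 of NOD.Drak2-/- (8.34% and 7.60%). With each array centred on its median, which raised the median of all genes from -0.02 to 0.05, 29 of 39 genes stayed negative, against 40.0% of all genes, and 2 had an unadjusted p under 0.05, where 10.02% of all genes did.

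**Figure D1:**
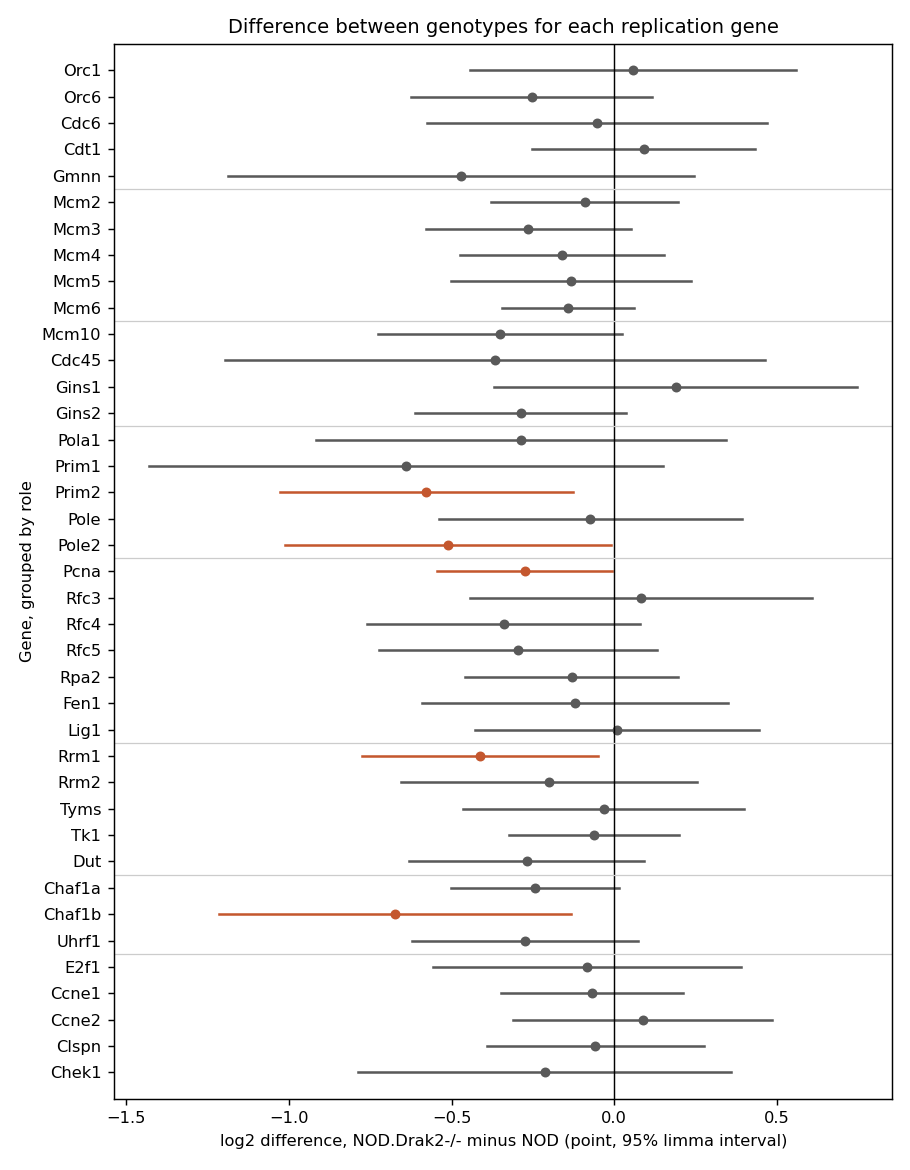
Log2 difference of NOD.Drak2-/- minus NOD on the horizontal axis for each of the 39 replication genes on the vertical axis, grouped by role, with its 95% limma interval. Intervals that exclude 0 are in orange and belong to Prim2, Pole2, Pcna, Rrm1 and Chaf1b; 33 of the 39 points lie below 0 and all but these 5 intervals hold 0.

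The mean of the 39 genes on each array showed which mice were high and low. The 6 NOD mice, in the order of their numbers, had list means of 7.36, 6.68, 7.07, 7.23, 7.14 and 7.42. For the NOD.Drak2-/- mice, numbered 1 to 5 and 7, the list means were 6.59, 6.78, 7.06, 7.14, 7.03 and 7.09. NOD replicate 2 thus lay among the low NOD.Drak2-/- arrays, while the other 4 NOD.Drak2-/- arrays lay inside the NOD range, below NOD replicates 1, 4 and 6. The genotype means were 7.15 ± 0.26 (SD, n = 6) and 6.95 ± 0.22 (SD, n = 6), a difference of -0.20 that is smaller than the spread within either genotype.

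The same arrays recurred across the genes. Within NOD.Drak2-/-, replicate 1 or 2 was the lowest array for 32 of the 39 genes (82.1%), against 37.7% of all genes. Replicate 1 was lowest for 21 of them (53.8% of the 39, against 16.6% of all genes) and replicate 2 for 11 (28.2%, against 21.1%). Replicate 2 was also the highest NOD.Drak2-/- array for 10 genes (25.6%, against 21.5% of all genes). Replicates 1 and 2 both lay below the other 4 NOD.Drak2-/- arrays for 14 genes (35.9%, against 11.2% of all genes), namely Orc1, Gmnn, Mcm4, Cdc45, Pola1, Prim1, Prim2, Pole, Pole2, Pcna, Chaf1a, Chaf1b, Clspn and Chek1. Within NOD, replicate 2 was lowest for 25 genes (64.1%, against 15.6% of all genes) and replicate 1 or 6 was highest for 31 (79.5%, against 32.2%). The median SD of the replication genes within a genotype was 0.39, against 0.25 over all genes. These patterns were looked at after the values had been seen. The part of array quality or of the hybridization controls in them was not tested.

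**Figure D2:**
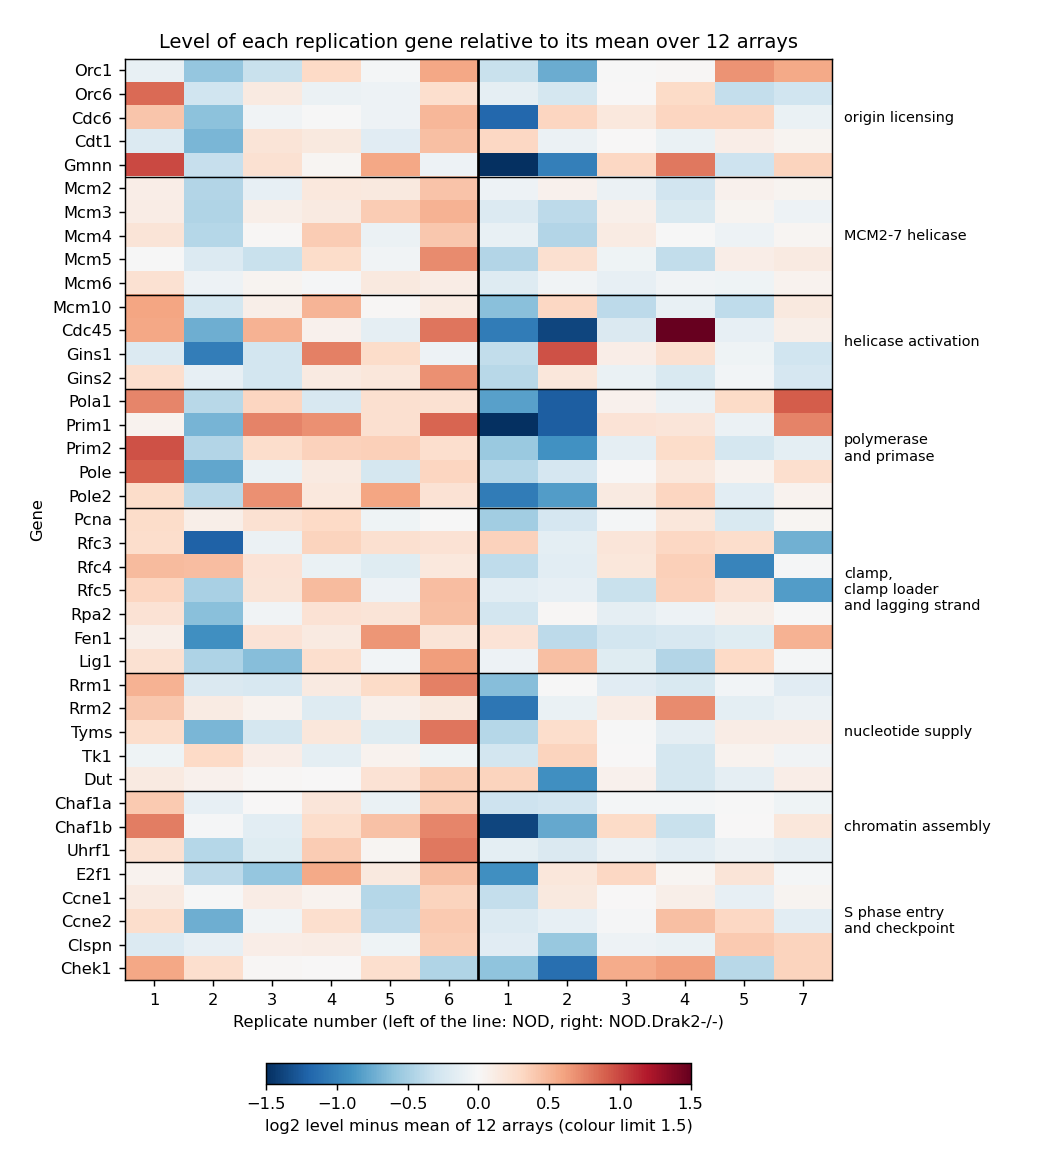
Level of each of the 39 replication genes on each array, as the log2 level minus that gene's mean over the 12 arrays, with genes in rows by role and arrays in columns by replicate number. Blue cells gather in NOD replicate 2 and NOD.Drak2-/- replicate 1, and red cells in NOD replicates 1 and 6. NOD.Drak2-/- replicate 2 is mixed, being the lowest array of its genotype for 11 genes and the highest for 10.

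The level of these genes set how well each could be read. Means over all arrays ran from 4.31 for Clspn, the adaptor that carries the replication checkpoint signal to Chk1, to 10.36 for Pcna, the sliding clamp. Levels of different genes are not compared further, since probes differ in brightness. Of the 39 genes, 32 had a mean above the brightest background row and 22 lay above it on all 12 arrays. The 7 at or below it were Orc1, Cdc45, Rfc3, Rrm2, Dut, E2f1 and Clspn, and Dut, E2f1 and Clspn were below it on every array, so their differences say little. These counts use 1 level for all arrays, 5.87. Some of the 22 fell below the brightest background of their own array. Examples are Pola1 in NOD.Drak2-/- replicate 2 (6.32 against 6.77) and Mcm10 in NOD.Drak2-/- replicate 1 (6.37 against 6.52).

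Origin licensing genes showed no common direction. Orc1, the ATPase subunit of the origin recognition complex that leaves chromatin after G1, averaged 5.21 in NOD and 5.26 in NOD.Drak2-/-. Orc6, the smallest subunit of that complex, averaged 7.93 and 7.67 (difference -0.25, 95% interval -0.62 to 0.12, and -0.11 without NOD replicate 1). Cdc6, which loads the helicase with the origin recognition complex, averaged 6.30 and 6.25, and Cdt1, its partner in loading, 7.73 and 7.82. Geminin, encoded by Gmnn, binds Cdt1 and blocks a further round of loading. In NOD, Gmnn ran from a lowest array of 5.98 through a median of 6.45 to a highest of 7.32, and in NOD.Drak2-/- from 4.81 through 6.33 to 7.11. The low end in NOD.Drak2-/- came from replicates 1 and 2 (4.81 and 5.30), and the other 4 arrays lay inside the NOD range. Its difference was -0.47 (95% interval -1.19 to 0.25, adjusted p = 0.666 in limma).

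The 5 measured genes of the Mcm2 to Mcm7 helicase all had small negative differences, and none passed. Their differences ran from -0.26 for Mcm3 to -0.09 for Mcm2, with Mcm4 at -0.16, Mcm6 at -0.14 and Mcm5 at -0.13, and each 95% interval held 0. Mcm5 ran from 8.56 through a median of 8.86 to 9.59 in NOD and from 8.44 through 8.91 to 9.13 in NOD.Drak2-/-, so the medians stood in the opposite order to the means (8.95 and 8.82). NOD replicate 6 alone set the top of the Mcm5 range. Mcm6 was the steadiest of the family, running from 9.48 through 9.64 to 9.79 in NOD and from 9.36 through 9.50 to 9.62 in NOD.Drak2-/-. All 6 NOD.Drak2-/- arrays lay below the NOD mean of Mcm6, yet 4 of them lay within the NOD range (limma adjusted p = 0.648). The two-sided exact permutation p of Mcm6 was 0.0325, unadjusted and the smallest among the 39 genes. Its unadjusted limma p was 0.159. The NOD.Drak2-/- arrays also all lay below the NOD mean of Mcm3, at 8.33 against 8.59. Among the 39 genes, 7 had all 6 NOD.Drak2-/- arrays below the NOD mean (17.95%, against 7.29% of all genes). With 5 or 6 arrays below it there were 18 genes (46.15%, against 23.15% of all genes).

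Of the 4 helicase activation genes, 3 had negative differences and none passed. Mcm10, which helps the loaded helicase to start unwinding, ran from 6.73 through a median of 7.10 to 7.58 in NOD and from 6.37 through 6.75 to 7.30 in NOD.Drak2-/-. Its difference was -0.35 (SE 0.18, adjusted p = 0.544 in limma), with 5 of 6 NOD.Drak2-/- arrays below the NOD mean. Gins2, a subunit of the GINS complex, ran from 7.01 through 7.44 to 7.97 in NOD and from 6.87 through 7.12 to 7.45 in NOD.Drak2-/-, a difference of -0.29 (SE 0.15, adjusted p = 0.566 in limma). Another subunit of that complex, Gins1, averaged 6.07 and 6.26 (difference 0.19, 95% interval -0.37 to 0.75). The difference of Gins1 was 0.0158 without NOD.Drak2-/- replicate 2 and -0.0004 without NOD replicate 2. Cdc45, which joins the GINS complex on the helicase, had the largest spread of all 39 genes. It ran from 5.02 through a median of 6.04 to 6.56 in NOD and from 4.38 through 5.59 to 7.33 in NOD.Drak2-/-. Both the lowest and the highest of the 12 arrays, NOD.Drak2-/- replicates 2 and 4, belonged to 1 genotype, and the 95% interval of the difference reached from -1.20 to 0.46.

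The 5 polymerase and primase genes all had negative differences, with a median of -0.51. Without NOD.Drak2-/- replicates 1 and 2 their median was -0.06. For each of these 5 genes both left-out arrays lay below the other 4 NOD.Drak2-/- arrays. A less negative median without them was therefore fixed in advance. Primase lays the RNA primer that polymerase alpha extends. Prim2, its large subunit, ran from 7.24 through a median of 7.99 to 8.64 in NOD and from 6.78 through 7.48 to 7.96 in NOD.Drak2-/-. All 6 NOD.Drak2-/- arrays lay below the NOD mean of 7.97, and the groups overlapped. The level of Prim2 was 1.49-fold lower (difference -0.58, 95% interval -1.03 to -0.13, unadjusted p = 0.0152 and adjusted p = 0.483 in limma, two-sided exact permutation p = 0.0411). Prim1, the catalytic subunit, ran from 5.18 through 6.35 to 6.76 in NOD and from 4.16 through 5.93 to 6.62 in NOD.Drak2-/-. NOD.Drak2-/- replicates 1 and 2 gave 4.16 and 4.65 for Prim1, both in the background range, and the other 4 arrays 5.79 to 6.62. Its difference of -0.64 had a 95% interval of -1.43 to 0.15, and the NOD.Drak2-/- mean of 5.56 lay below the brightest background row.

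Polymerase subunits followed the same arrays. Pola1, the catalytic subunit of polymerase alpha, ran from 7.14 through a median of 7.80 to 8.29 in NOD and from 6.32 through 7.55 to 8.48 in NOD.Drak2-/-. Its lowest arrays were NOD.Drak2-/- replicates 2 and 1 and its highest was NOD.Drak2-/- replicate 7, so the genotype with the lower mean also held the highest mouse. Pole2, the second subunit of the leading-strand polymerase epsilon, ran from 5.82 through 6.46 to 6.91 in NOD and from 5.17 through 6.16 to 6.55 in NOD.Drak2-/-. The difference of Pole2 was -0.51 (95% interval -1.01 to -0.01, adjusted p = 0.526 in limma), and the two-sided exact permutation p was 0.104. The catalytic subunit gene Pole averaged 6.85 and 6.77. With NOD.Drak2-/- replicates 1 and 2 left out, the differences were -0.36 for Prim2, -0.17 for Pole2, -0.06 for Prim1, 0.08 for Pole and 0.15 for Pola1.

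**Figure D3:**
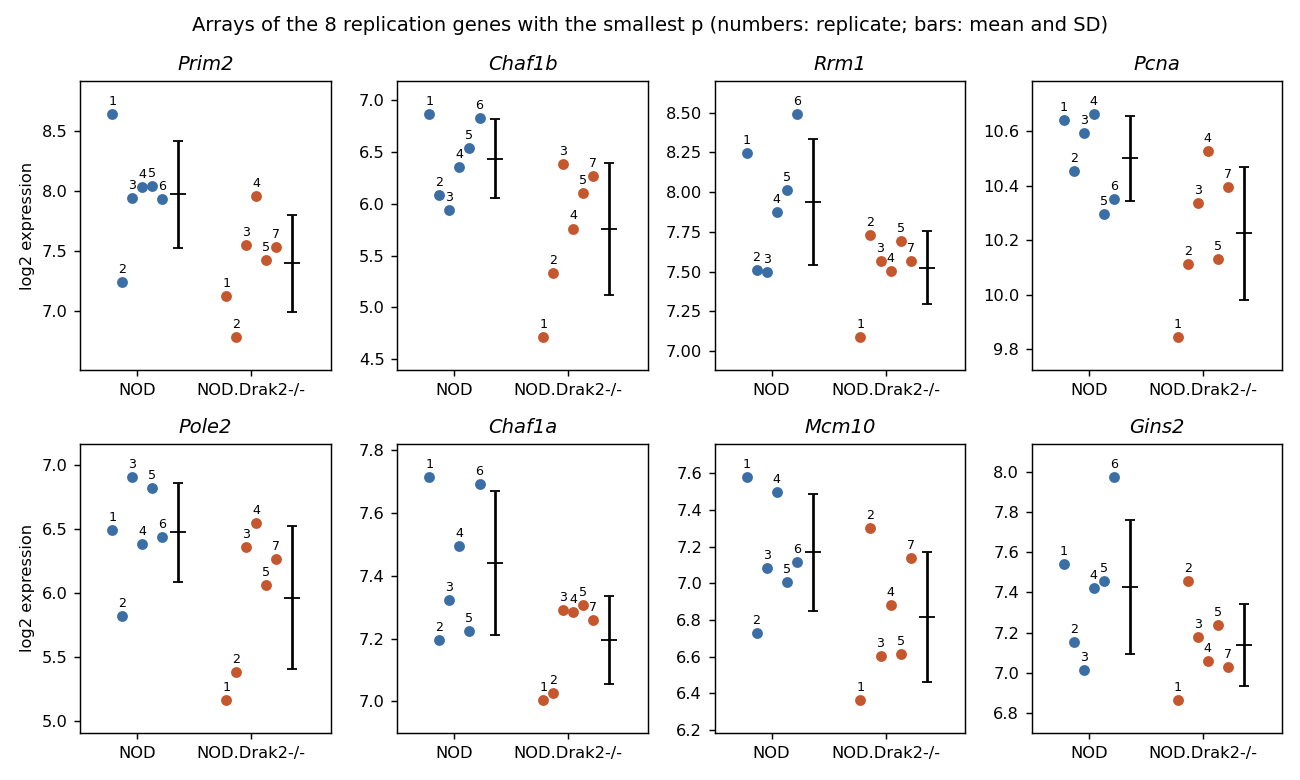
Log2 expression of the 8 replication genes with the smallest limma p on each array, with NOD in blue, NOD.Drak2-/- in orange, replicate numbers beside the points and bars for the mean and SD of 6 arrays. In every panel the groups overlap, and NOD.Drak2-/- replicate 1 or 2 is the lowest point.

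Among the clamp, its loader and the lagging-strand genes, Pcna had an unadjusted p under 0.05. Pcna encodes the ring that tethers polymerases to DNA. It ran from 10.30 through a median of 10.52 to 10.66 in NOD and from 9.84 through 10.23 to 10.53 in NOD.Drak2-/-. NOD.Drak2-/- replicates 1, 2 and 5 (9.84, 10.11 and 10.13) lay below all NOD arrays, and the other 3 lay within the NOD range. The level of Pcna was 1.21-fold lower (difference -0.28, 95% interval -0.54 to -0.01, adjusted p = 0.522 in limma, two-sided exact permutation p = 0.039). Without NOD.Drak2-/- replicates 1 and 2 the difference of Pcna was -0.15. Of the clamp loader genes, Rfc4 had a difference of -0.34 (-0.18 without NOD.Drak2-/- replicate 5) and Rfc5 one of -0.30 (-0.16 without NOD.Drak2-/- replicate 7), while Rfc3 averaged 5.83 and 5.91 near background. Rpa2, a subunit of the single-strand binding protein RPA, averaged 8.10 and 7.97. The flap nuclease gene Fen1, whose product trims Okazaki fragments, averaged 6.85 and 6.73, and Lig1, the ligase that seals them, 6.58 and 6.59.

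In nucleotide supply, the subunits of ribonucleotide reductase were read with unequal confidence. Rrm1, the large subunit of this enzyme that makes deoxyribonucleotides, ran from 7.50 through a median of 7.94 to 8.49 in NOD and from 7.09 through 7.57 to 7.73 in NOD.Drak2-/-. All 6 NOD.Drak2-/- arrays lay below the NOD mean, and NOD replicates 2 and 3 (7.51 and 7.50) lay among them. The level was 1.33-fold lower (difference -0.41, 95% interval -0.78 to -0.05, adjusted p = 0.506 in limma, two-sided exact permutation p = 0.0541). With NOD.Drak2-/- replicates 1 and 2 left out, the difference of Rrm1 was -0.36. Rrm2, the small subunit that is the more tightly tied to S phase, lay in the background range at 5.79 and 5.59. Tyms, which makes thymidylate, averaged 7.71 and 7.68, and the salvage enzyme gene Tk1 averaged 6.08 and 6.02. Dut, which removes dUTP, was below the background row on all arrays.

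The 3 chromatin genes all had negative differences, and none passed over all genes. Chaf1a and Chaf1b encode subunits of chromatin assembly factor 1, which places histones on newly copied DNA. Chaf1b ran from 5.94 through a median of 6.45 to 6.86 in NOD and from 4.72 through 5.93 to 6.38 in NOD.Drak2-/-. Replicates 1 and 2 gave 4.72 and 5.34 in NOD.Drak2-/-, below the brightest background row, and the other 4 arrays 5.76 to 6.38. The mean of Chaf1b was 6.44 in NOD and 5.76 in NOD.Drak2-/-, and the latter lay below the brightest background row (difference -0.67, 95% interval -1.22 to -0.13, adjusted p = 0.485 in limma, two-sided exact permutation p = 0.0519), and without those 2 arrays the difference was -0.31. Chaf1a ran from 7.19 through 7.41 to 7.71 in NOD and from 7.01 through 7.27 to 7.31 in NOD.Drak2-/-, all 6 below the NOD mean (difference -0.24, 95% interval -0.50 to 0.01, adjusted p = 0.541 in limma).

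Uhrf1 differed from its neighbours in how its arrays were spread. It encodes the factor that brings the maintenance methyltransferase to newly copied DNA. The NOD mean of Uhrf1 was 8.41 ± 0.43 and its NOD.Drak2-/- mean 8.14 ± 0.05 (SD over 6 arrays each). The NOD arrays ran from 7.86 through a median of 8.41 to 9.06 and the NOD.Drak2-/- arrays from 8.07 through 8.14 to 8.19, a narrow band inside the NOD range. The difference of the spreads was not tested, and the SD was larger in NOD for 22 of the 39 genes and larger in NOD.Drak2-/- for 17.

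The genes of S phase entry and the checkpoint had a median difference of -0.07. Cyclin E drives Cdk2 at the start of S phase. Its gene Ccne1 ran from 8.37 through a median of 8.89 to 9.13 in NOD and from 8.44 through 8.82 to 8.95 in NOD.Drak2-/-, a difference of -0.07 (95% interval -0.35 to 0.21). Ccne2 averaged 7.29 and 7.37. The checkpoint kinase gene Chek1 averaged 6.43 and 6.21, with its lowest arrays NOD.Drak2-/- replicates 2 and 1 (5.19 and 5.72) and its highest NOD.Drak2-/- replicate 4 (6.94). E2f1, an activator of the E2F family, averaged 5.23 and 5.14 in the background range.

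Whether a promoter held the E2F letters was set beside the differences of its gene. Of the 32 measured genes with a window, the 12 with an E2F form had a median difference of -0.10, 8 of them negative, and the 20 without had a median of -0.25, all 20 negative. Of the 5 genes with an unadjusted p under 0.05, Pole2 held a form after the start site, Chaf1b, Rrm1 and Pcna held none of these letters in the window, and Prim2 had no window. These values describe the windows and were not tested.

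Other genes of the pathway were taken from lists that hold none of the 39. Of 36 further replication genes, 0 passed over all genes in limma and 2 had an unadjusted p under 0.05, both lower in NOD.Drak2-/-, which is 5.56% of the list against 9.43% of all genes. These were Chtf18, a subunit of an alternative clamp loader, at -0.31 (adjusted p = 0.517), and Pold3, a subunit of polymerase delta, at -0.32 (adjusted p = 0.527). The difference was negative for 24 of the 36, with a median of -0.10. Dbf4, the activator of the kinase that fires origins, was next at -0.43 (adjusted p = 0.535). Chtf18 and Dbf4 lay in the background range on average. Of 19 E2F and G1 regulators, 0 passed and 0 had an unadjusted p under 0.05, with a median of -0.01. Cdkn1b, which encodes the cell cycle inhibitor p27, differed by 0.22 (adjusted p = 0.566), E2f7, a repressor of E2F targets, by -0.24 (adjusted p = 0.595), and Rbl2, a retinoblastoma family gene of resting cells, by 0.17 (adjusted p = 0.643).

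Genes of mitosis followed the same arrays as the replication genes. Of 23 measured, 0 passed over all genes in limma, 3 had an unadjusted p under 0.05 and 20 were negative, with a median of -0.26. That p was met by 13.04% of the list and by 9.43% of all genes, and 54.1% of all genes were negative. The 3 were the spindle genes Nusap1 (-0.70, adjusted p = 0.483), Stmn1 (-0.47, adjusted p = 0.505) and Aurka (-0.43, adjusted p = 0.512). Aurka lay in the background range, as did the NOD.Drak2-/- mean of Nusap1 (5.75). The mitosis mean of NOD replicate 2 was 5.91, the lowest in NOD, and that of NOD.Drak2-/- replicate 1 was 5.80, the lowest of all. NOD replicates 1 and 6 were highest at 7.09 and 7.16. In the 36 further replication genes NOD replicate 2 (7.16) was lowest and NOD.Drak2-/- replicates 1 and 2 (7.22 and 7.24) came next.

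**Figure D4:**
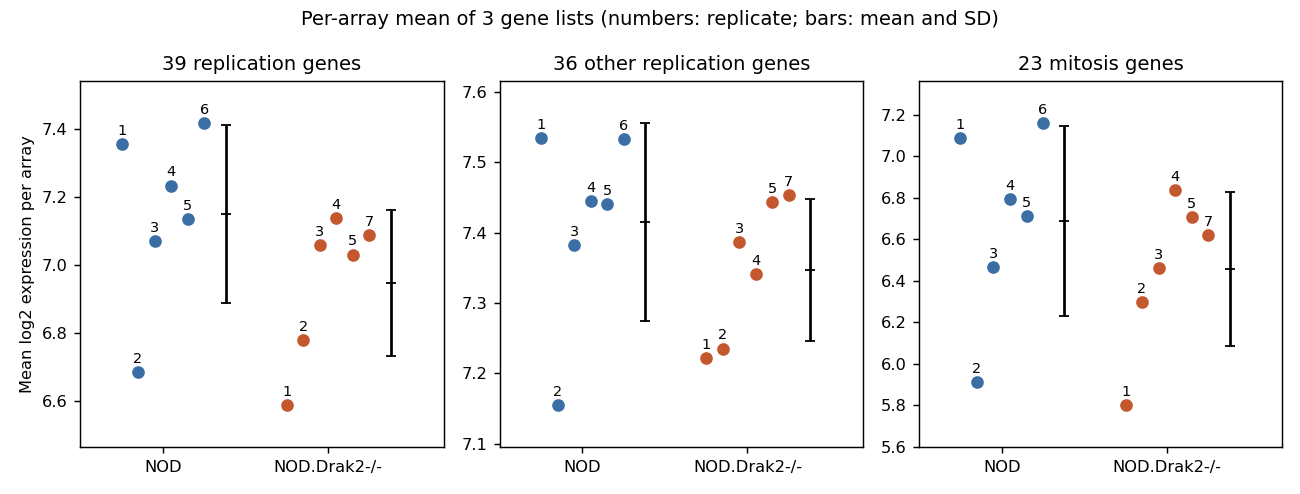
Mean log2 expression per array of the 39 replication genes, 36 other replication genes and 23 mitosis genes, each panel on its own axis, with NOD in blue, NOD.Drak2-/- in orange, replicate numbers beside the points and bars for the mean and SD of 6 arrays. In all 3 panels NOD replicate 2 and NOD.Drak2-/- replicates 1 and 2 are the 3 lowest arrays, and NOD replicates 1 and 6 the highest.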

How the data were processed

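The deposited values are on a log2 scale, and the submitters' processing notes name RMA and the R package oligo, with versions and genome build not given in the sources used here. Per the labels' protocols, 125 ng of RNA per mouse was labelled as cDNA with a whole-transcript kit. Deposited log2 values ran from 1.49 to 12.77; arrays have no counts, so their number limits the precision. The 19505 genes came from 19572 rows with 1 symbol in the platform annotation (67 dimmer rows dropped; 0 rows had several symbols), with no filter on dim genes. Genotypes were compared by limma 3.58.1 in R 4.3.3 (lmFit, eBayes, no covariate) with Benjamini-Hochberg adjustment over all genes at 0.05; the step was tested on simulated data. Exact permutation tests, run for each of the 39 genes, were unadjusted, two-sided and over 6 against 6 arrays. All 39 genes are named; lowest, median and highest arrays are given for the 8 with the smallest p, the 4 brightest and the 4 with the largest spread, and for Uhrf1, chosen after its values were seen. Of the further replication, E2F and G1, and mitosis lists the 3 genes with the smallest p are named; marker lists are given by counts and levels, with single markers named after their values were seen. The genes and lists were chosen with earlier results of these data known.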

Additional observations from a re-analysis of the deposited data

Results flagged for a closer look

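Within a genotype, 1 array stood far from the other 5 for 5 replication genes, always on the low side, among 80 groups of 6 arrays examined, where chance flags about 1 in 20. In NOD.Drak2-/- it was replicate 1 for Cdc6 (5.10, with the next array at 6.18), E2f1 (4.26, next 5.15) and Rrm1 (7.09, next 7.51). In NOD it was replicate 2 for Rfc3 (4.66, next 5.78) and Fen1 (5.86, next 6.87).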

How the results depend on the processing

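In all 20 alternatives 0 replication genes passed over all genes in limma, with adjusted p-values down to 0.27, and the median difference stayed negative, from -0.27 to -0.09. At an unadjusted p under 0.05 the count of 5 became 2 with median centring, where 10.02% of all genes met that p. It was 9 without the pair of arrays of lowest weight (6.40% of all genes) and 0 without the pair highest on component 1 (8.12%). Both of these left-out pairs were chosen after seeing the data. When 1 array was left out the count ran from 2 to 12, and the share of all genes from 6.91% to 13.01%. The replicate block leaves NOD replicate 6 and NOD.Drak2-/- replicate 7 without a partner and so out of the contrast. With it the median was -0.16 and the count at that p was 5, where 7.79% of all genes met it. Of the 5 same-numbered pairs, 0 deviated together (correlation over 0.1). A low correlation cannot show whether same-numbered mice were handled together, so it does not settle whether the numbers pair the mice. The sign of 21 genes held in every setting run and that of 18 turned. With median centring Cdc6 gave 0.0129, Tyms 0.0329, Tk1 0.0045 and Clspn 0.0072, and with the block Cdc6 0.0567 and Tyms 0.10. With array weights Gins1 gave -0.0309, Rfc3 -0.0329 and Lig1 -0.0874. Without the lowest-weight pair Cdt1 gave -0.0109, Gins1 -0.17, Rfc3 -0.11, Lig1 -0.17, Ccne2 -0.0152, Clspn 0.0174 and Chek1 0.0186. Without the pair highest on component 1, Cdc6 gave 0.15, Gmnn 0.0452, Cdc45 0.15, Pola1 0.15, Pole 0.0784, Lig1 -0.0834, Rrm2 0.0453, Tyms 0.0029, E2f1 0.083, Clspn 0.11 and Chek1 0.16. When 1 array was left out, Orc1 ran from -0.0717 to 0.21, Cdc6 from -0.18 to 0.18, Cdt1 from -0.0374 to 0.19, Gins1 from -0.0004 to 0.36, Pole from -0.24 to 0.10, Rfc3 from -0.15 to 0.23, Fen1 from -0.32 to 0.0014, Lig1 from -0.12 to 0.14, Tyms from -0.17 to 0.13, E2f1 from -0.21 to 0.0923, Ccne2 from -0.0493 to 0.17 and Clspn from -0.14 to 0.0489. The causes were not tested. The 7 genes in the background range dropped out under the filter on dim genes.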
